A study of Homo sapiens with 4 samples.

Results

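Antisense and long noncoding RNAs of neuroblastoma cells were read from the gene counts of SK-N-BE(2), an established human neuroblastoma line with amplified MYCN. The members were 10 long noncoding RNAs that lie beside core regulators of these cells or are abundant in neural tumours, chosen by symbol. All 10 matched an Ensembl row, of 64252 rows in the table and 15105 rows annotated as long noncoding RNA genes. The knockdown group carried an shRNA against IRF2BP2 (shIRF2BP2, 2 libraries) and were set against libraries with a scramble shRNA (shScb, 2 libraries), both from the same line, whose cells were transfected per the design text. The labels name 1 line and do not say how many hairpins were used, whether the cells were pools or clones, or whether the replicates were grown apart. The p-values therefore cover the spread between 4 libraries, which may be technical.

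Long noncoding RNAs are transcripts without a long reading frame that act in the nucleus or cytoplasm as scaffolds, as guides for proteins, or through the act of their own transcription. Several start beside a transcription factor gene on the opposite strand, as HAND2-AS1 and GATA3-AS1 do beside core regulators of adrenergic neuroblastoma. Others belong to imprinted regions, in which a gene is read from the maternal or the paternal copy alone, as H19, MEG3 and KCNQ1OT1 do. MALAT1, NEAT1 and MIAT stay in the nucleus, where MALAT1 collects in speckles that hold splicing factors and NEAT1 builds paraspeckles.

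Library totals lay between 30847699 and 34684651 counts. IRF2BP2 itself had 89.6 and 87.5 CPM (counts per library size, with TMM-scaled library sizes) in the shIRF2BP2 libraries, against 243 and 238 CPM in the shScb libraries. The neuroblastoma markers were present, and their summed level lay between 8650 and 8760 CPM in shIRF2BP2 and between 7700 and 8040 CPM in shScb. The 2 endothelial markers summed to 0.0624 CPM or less in shIRF2BP2 and to 0.651 CPM or less in shScb, with PECAM1 at 0 in all 4 libraries, and the 3 blood markers lay between 3.06 and 3.72 CPM in shIRF2BP2 and between 4.40 and 6.90 CPM in shScb. The 7 fibroblast or Schwann cell markers summed to 91.5 and 85.5 CPM in shIRF2BP2 and to 124 and 122 CPM in shScb. Of these, LUM had 52.2 and 50.7 CPM in shIRF2BP2 and 108 and 102 CPM in shScb, COL1A1 had 33.2 and 28.7 CPM in shIRF2BP2 and 6.77 and 7.0 CPM in shScb, and COL1A2 was at 0 in both shIRF2BP2 libraries. Mitochondrially encoded genes took 6.42% of the counts in each shIRF2BP2 library, against 7.27% and 7.10% in shScb. The part of these levels in the results on the long noncoding RNAs was not tested.

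The loci the results turn on most are shown by their promoter windows, from 250 bases before to 50 after the first base of a RefSeq transcript (GRCh38.p14), with letters matching CANNTG, the E-box bound by basic helix-loop-helix factors such as HAND2 and MYCN, in capitals. HAND2-AS1 and HAND2 start on opposite strands with first bases 229 bases apart for 1 of the HAND2-AS1 starts, so their 300 base windows share 272 bases, and the HAND2-AS1 strand is given. MYCNOS starts on the minus strand inside MYCN, and both genes were called higher.
HAND2-AS1, chr4:173530208-173530507, plus strand: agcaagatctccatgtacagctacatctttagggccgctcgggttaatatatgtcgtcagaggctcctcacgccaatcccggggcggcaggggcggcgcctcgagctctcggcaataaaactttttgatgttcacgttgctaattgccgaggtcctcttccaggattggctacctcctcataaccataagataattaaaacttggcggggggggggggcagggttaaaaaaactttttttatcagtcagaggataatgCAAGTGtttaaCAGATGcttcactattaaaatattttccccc
MYCNOS, chr2:15941636-15941935, minus strand: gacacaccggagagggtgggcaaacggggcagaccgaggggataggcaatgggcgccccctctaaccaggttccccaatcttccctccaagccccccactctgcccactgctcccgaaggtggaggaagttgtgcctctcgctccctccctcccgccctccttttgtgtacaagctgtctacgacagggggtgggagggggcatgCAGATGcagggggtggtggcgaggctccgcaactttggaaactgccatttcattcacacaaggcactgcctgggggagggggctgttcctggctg
MYCN, chr2:15940300-15940599, plus strand: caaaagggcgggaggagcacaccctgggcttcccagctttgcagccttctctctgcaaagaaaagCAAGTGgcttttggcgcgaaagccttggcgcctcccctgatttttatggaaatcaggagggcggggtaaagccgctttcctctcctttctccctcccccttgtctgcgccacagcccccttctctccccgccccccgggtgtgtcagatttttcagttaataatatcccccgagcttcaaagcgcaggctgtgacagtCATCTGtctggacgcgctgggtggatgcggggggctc
The HAND2-AS1 window held 2 CANNTG matches on either strand, the MYCNOS window 1 and the MYCN window 2, and 68.7% of 34943 promoter windows of this length hold at least 1. The letters GATA were found 3 times in the HAND2-AS1 window and 1 time in each of the MYCNOS and MYCN windows, and 49.8% of all windows hold them. Each noncoding gene has a second RefSeq start, whose window held 1 CANNTG match and 1 GATA match for HAND2-AS1 and 1 CANNTG match and 0 GATA matches for MYCNOS. The palindrome CACGTG, which 7.23% of all windows hold, was not found in these windows. A match is a run of letters and was not tested as a binding site.

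H19 and MEG3 also carry microRNA hairpins, and their mature forms are shown because both host transcripts fell, with the seed (bases 2 to 8) in capitals. The sequences are RefSeq entries on GRCh38.p14, and mature microRNAs were not measured in these libraries.
hsa-miR-675-5p, from H19: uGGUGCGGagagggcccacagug
hsa-miR-675-3p, from H19: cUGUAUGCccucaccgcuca
hsa-miR-770-5p, from MEG3: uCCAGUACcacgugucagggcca
The 3 seeds differ from one another. A row for the MIR770 hairpin, which lies inside MEG3, held 13 and 13 counts in shIRF2BP2 and 40 and 58 counts in shScb, a log2 fold change of -1.89 (standard error 0.42, edgeR adjusted p = 0.00363). Its bases are exon bases of MEG3, so reads there cannot be told apart from the host transcript.

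Of the 10 long noncoding RNAs, 5 fell, 1 rose and 4 were not called (edgeR quasi-likelihood test, Benjamini-Hochberg adjusted p under 0.05 over 19093 genes). H19, HAND2-AS1, MIAT, MEG3 and KCNQ1OT1 fell, and the MYCNOS row, which shares exon bases with MYCN, rose slightly. With upper quartile scaling edgeR called 5 lower and 0 higher (6 and 0 at an unadjusted p under 0.05), while DESeq2 and limma voom each called 5 lower and 1 higher. Over all genes 42% were called, 20.6% higher and 21.4% lower, so a call alone was common in this comparison. Among 2741 long noncoding RNA genes tested, 18.4% were called, 4.96% higher and 13.4% lower. Most of those had a mean under 10 CPM, and among the 204 with a mean of at least 10 CPM, as all 10 members have, 49% were called, 10.8% higher and 38.2% lower. The median log2 fold change was -0.46 over the 10 members, -0.13 over those 204 genes, -0.16 over all long noncoding RNA genes tested and -0.01 over all genes.

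The 3 long noncoding RNA genes with the highest mean level among all tested were MEG3, H19 and HAND2-AS1, and all of them fell. The 10 members held 13.6% and 13.9% of all long noncoding RNA counts in the shIRF2BP2 libraries, against 19.2% and 19.7% in the shScb libraries. As a share of the whole library this was 0.159% and 0.161% in shIRF2BP2 and 0.267% and 0.274% in shScb. In bulk RNA, fewer cells with a transcript and less of it per cell cannot be told apart. Both shIRF2BP2 libraries lay outside the range of both shScb libraries for 8 of the 10 members, 6 lower and 2 higher, which was the case for 70.4% of all genes tested and 54.5% of long noncoding RNA genes.

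**Figure D1:**
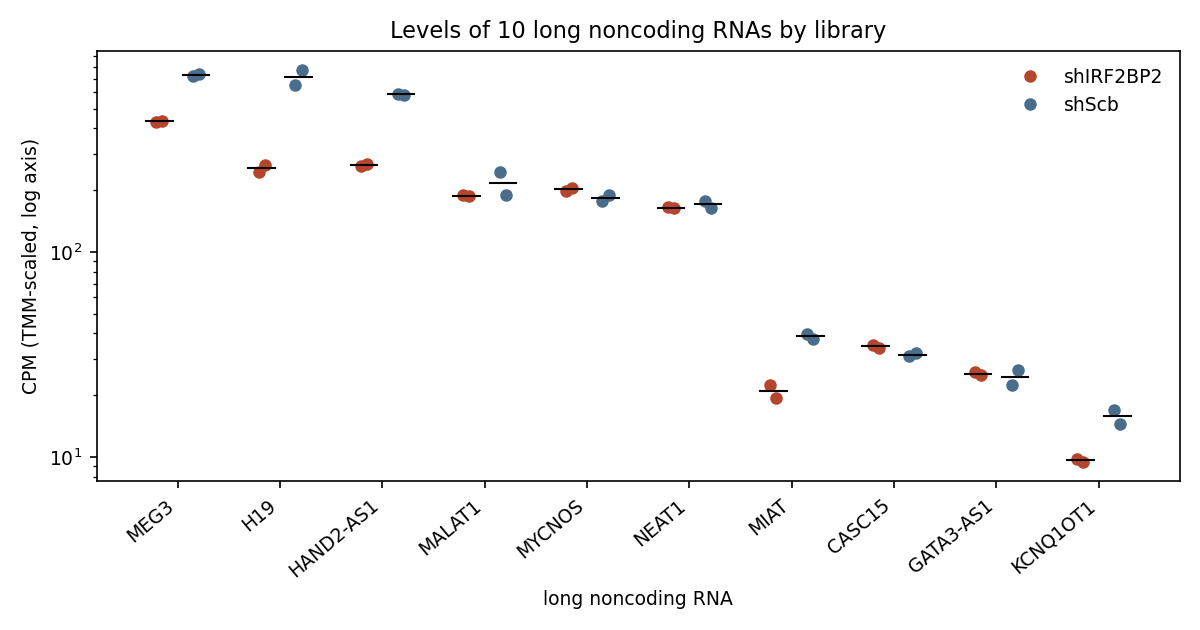
Level of each of the 10 long noncoding RNAs in CPM (log axis) in every library, with shIRF2BP2 libraries left of shScb libraries for each gene and a bar at the mean of 2 libraries. The shIRF2BP2 points lie clearly below the shScb points for MEG3, H19, HAND2-AS1, MIAT and KCNQ1OT1, and near or among them for the other 5.

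**Figure D2:**
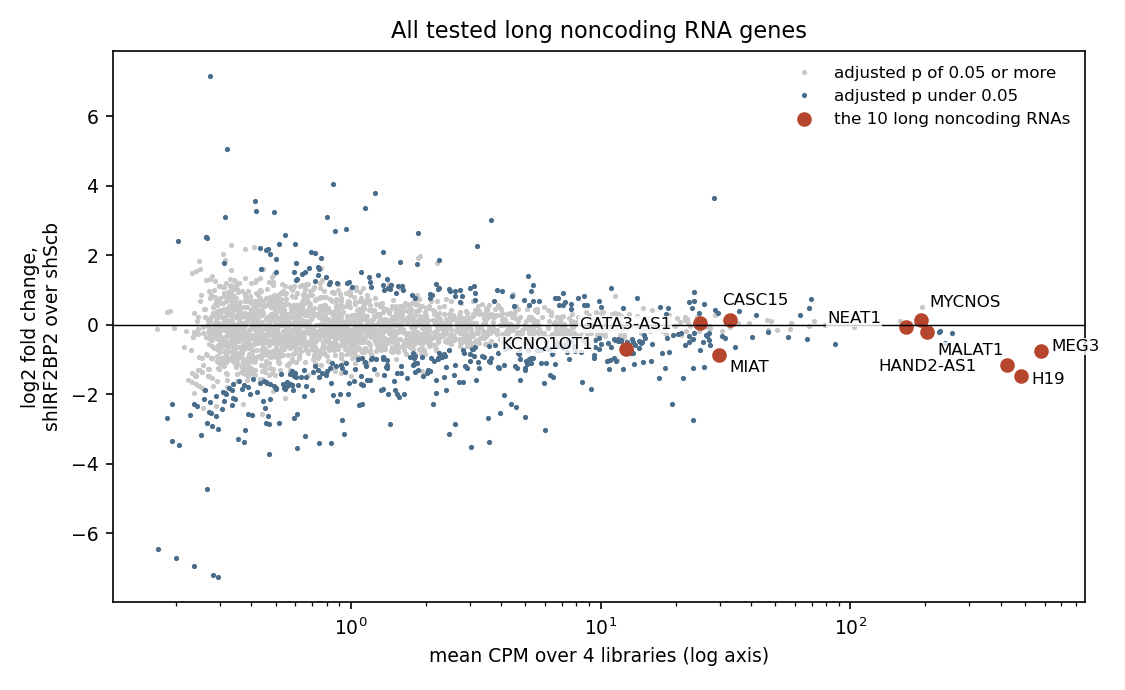
Log2 fold change, shIRF2BP2 over shScb, against mean CPM over 4 libraries (log axis) for the 2741 long noncoding RNA genes tested, with the 10 members in red. H19, HAND2-AS1 and MEG3 stand at the right edge, below 0.

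HAND2-AS1 is the divergent partner of HAND2, a basic helix-loop-helix factor of the sympathetic lineage, and transcription of the mouse counterpart is known to act on Hand2 in the heart. It maps to the plus strand of chromosome 4 at 173527270 to 173659696 (GRCh38, GENCODE 29, ENSG00000237125). Its level was 262 and 267 CPM in the shIRF2BP2 libraries, against 590 and 585 CPM in the shScb libraries. The replicates of each group nearly coincided and the groups stood far apart. It was 2.22-fold lower (log2 fold change -1.15, standard error 0.04, edgeR adjusted p = 1.73e-09).

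HAND2 also fell, by a smaller fold. It had 672 and 674 CPM in shIRF2BP2 and 833 and 944 CPM in shScb, a log2 fold change of -0.40 (standard error 0.06, edgeR adjusted p = 5.38e-04). HAND2-AS1 stood at 39.3% of the HAND2 level in shIRF2BP2 and at 66.3% in shScb (geometric means, CPM not scaled by length). The log2 ratio was -1.36 and -1.34 in shIRF2BP2 and -0.50 and -0.69 in shScb, so the groups did not overlap, with a difference of -0.75 (exact permutation test, two-sided, p = 0.333, the smallest that 2 against 2 libraries allow).

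Because the kit does not mark strand, reads on bases shared by the 2 genes cannot be assigned. HAND2 and HAND2-AS1 share 867 exon bases, which are 24.1% of the HAND2 exon bases and 4.09% of those of HAND2-AS1. If HAND2 reads were spread evenly over its exons, those bases would hold 5174 and 5198 of them in shIRF2BP2 and 6970 and 6981 in shScb. The HAND2-AS1 row held 8375 and 8544 counts in shIRF2BP2 and 20504 and 17975 counts in shScb. The real spread of HAND2 reads over its exons was not measured, and their part in the HAND2-AS1 counts was not tested. The sources used here do not say how the counter treated shared bases.

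GATA3-AS1 runs opposite to GATA3, a zinc finger factor of the adrenergic core circuit, on the minus strand of chromosome 10 at 8050450 to 8053484 (ENSG00000197308). It had 25.8 and 25.0 CPM in shIRF2BP2, against 22.5 and 26.5 CPM in shScb, and the groups overlapped (log2 fold change 0.06, standard error 0.09, edgeR adjusted p = 0.675). GATA3 had 240 and 250 CPM in shIRF2BP2 and 232 and 236 CPM in shScb (log2 fold change 0.06, edgeR adjusted p = 0.237). GATA3-AS1 stood at 10.4% of the GATA3 level in either group, with a difference in log2 ratio of -0.0041. The whole of GATA3-AS1 lies within the GATA3 gene in GENCODE 29 and shares none of the GATA3 exon bases. The GATA3-AS1 row can therefore also take unspliced GATA3 reads, whose part was not tested. Of the GATA3-AS1 exon bases 15.2% lie under a short opposite-strand noncoding gene with a mean count of 29.

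MYCNOS is the antisense gene of MYCN, and its transcript also encodes NCYM, a protein known to stabilise MYCN. It maps to the minus strand of chromosome 2 at 15921037 to 15942249 (ENSG00000233718). Its level was 197 and 206 CPM in shIRF2BP2, against 177 and 190 CPM in shScb. The lowest shIRF2BP2 library lay just above the highest shScb library. The rise was 1.10-fold (log2 fold change 0.13, standard error 0.05, edgeR adjusted p = 0.0352). The call was lost without shIRF2BP2 replicate 1 (edgeR adjusted p = 0.0503), without shIRF2BP2 replicate 2 (0.216) and without shScb replicate 1 (0.120).

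MYCN rose by a larger fold, with 7067 and 7167 CPM in shIRF2BP2 and 5355 and 5511 CPM in shScb (log2 fold change 0.39, standard error 0.03, edgeR adjusted p = 5.09e-07). MYCNOS stood at 2.83% of the MYCN level in shIRF2BP2 and at 3.38% in shScb, and the log2 ratio was -5.16 and -5.12 in shIRF2BP2 against -4.92 and -4.86 in shScb (difference -0.26, exact permutation p = 0.333, the smallest possible). The genes share 98 exon bases. Spread evenly over its exons, MYCN would place 8515 and 8647 reads there in shIRF2BP2 and 7006 and 6379 in shScb, more than the 6314 and 6585 counts of the whole MYCNOS row in shIRF2BP2 and the 6148 and 5848 in shScb. In all, 23.4% of the MYCNOS exon bases lie within the MYCN gene. DDX1, an RNA helicase gene often amplified together with MYCN, had 317 and 312 CPM in shIRF2BP2 and 263 and 262 CPM in shScb (log2 fold change 0.26, edgeR adjusted p = 2.15e-04), and MYCNUT, a noncoding gene upstream of MYCN, had no count.

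CASC15 comes from a neuroblastoma risk locus on the plus strand of chromosome 6 at 21664772 to 22368328 (ENSG00000272168), where NBAT1 is read from the opposite strand and SOX4, a factor of neural progenitors, lies 66153 bases before it. CASC15 had 35.3 and 33.8 CPM in shIRF2BP2, against 30.9 and 32.2 CPM in shScb. The groups did not overlap, but the difference did not pass the test (log2 fold change 0.13, standard error 0.07, edgeR adjusted p = 0.187). NBAT1, known as a tumour suppressor RNA in neuroblastoma, was scarce, with 30 and 61 counts in shIRF2BP2 and 78 and 87 counts in shScb (log2 fold change -0.83, standard error 0.35, edgeR adjusted p = 0.0792, but 0.0137 without shIRF2BP2 replicate 2). The pair shares 227 exon bases, on which an even spread of NBAT1 reads would place at most 10. SOX4 rose, with 374 and 369 CPM in shIRF2BP2 and 278 and 318 CPM in shScb (log2 fold change 0.32, edgeR adjusted p = 0.00280).

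**Figure D3:**
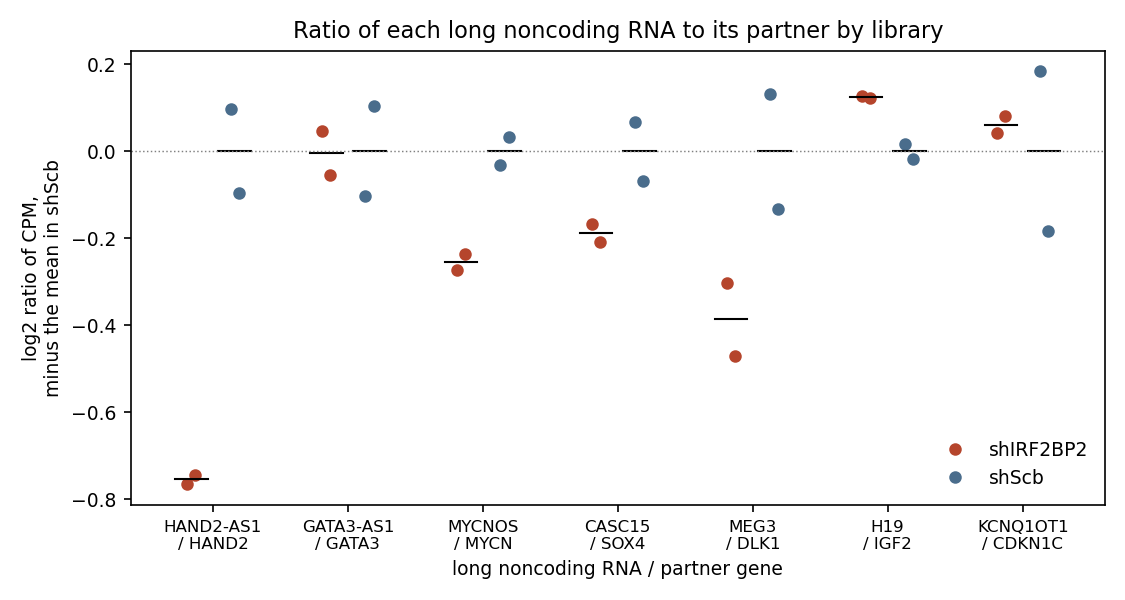
Log2 ratio of each long noncoding RNA to a partner or neighbouring gene in every library, with the mean of the shScb libraries set to 0, shIRF2BP2 libraries left of shScb libraries and bars at the means. The HAND2-AS1 to HAND2 ratio is lower in both shIRF2BP2 libraries by the widest margin of the 7 pairs, and the GATA3-AS1 and KCNQ1OT1 ratios overlap between groups.

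H19 showed the largest fall of the 10. This maternally expressed RNA of the imprinted 11p15 region shares enhancers with IGF2, the growth factor gene read from the paternal copy. It maps to the minus strand of chromosome 11 at 1995176 to 2001470 (ENSG00000130600). It had 246 and 266 CPM in shIRF2BP2, against 649 and 768 CPM in shScb, so the shScb libraries differed from each other more than the shIRF2BP2 libraries did and still lay far above them. H19 was 2.77-fold lower (log2 fold change -1.47, standard error 0.10, edgeR adjusted p = 6.38e-04), and 4 of the other long noncoding RNA genes with a mean of at least 10 CPM had a lower log2 fold change.

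IGF2 fell by about as much, with 16.7 and 18.1 CPM in shIRF2BP2 and 47.6 and 57.6 CPM in shScb (log2 fold change -1.59, standard error 0.10, edgeR adjusted p = 4.98e-07). The log2 ratio of H19 to IGF2 was 3.88 and 3.87 in shIRF2BP2 and 3.77 and 3.74 in shScb, a difference of 0.12 (exact permutation p = 0.333, the smallest possible). Both genes fell with little difference in their ratio. Of the IGF2 exon bases 20.9% are shared with the read-through gene INS-IGF2, which had no count. The antisense transcript IGF2-AS had 28 counts or fewer in shIRF2BP2 and 29 or fewer in shScb and was not called (log2 fold change -0.26, edgeR adjusted p = 0.732), with a sign that changed when a library was left out. The ribosomal protein gene MRPL23, which lies 10654 bases from H19, stood at -0.02 on the log2 scale of fold change (edgeR adjusted p = 0.818), while MRPL23-AS1 had 26 and 33 counts in shIRF2BP2 and 60 and 62 in shScb (log2 fold change -1.02, edgeR adjusted p = 0.0259). That call was lost without shIRF2BP2 replicate 1 (edgeR adjusted p = 0.136), without shScb replicate 2 (0.107) and with DESeq2 (adjusted p = 0.133).

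KCNQ1OT1 is the paternally expressed antisense RNA of KCNQ1 that keeps KCNQ1, CDKN1C and neighbours silent on its own copy. It maps to the minus strand of chromosome 11 at 2608328 to 2699994 (ENSG00000269821), and its single exon of 91667 bases makes it the lowest of the 10 per length, at 0.105 CPM per kilobase in shIRF2BP2 and 0.172 CPM per kilobase in shScb. It had 9.75 and 9.46 CPM in shIRF2BP2, against 16.99 and 14.5 CPM in shScb, with no overlap. The fall was 1.64-fold (log2 fold change -0.72, standard error 0.12, edgeR adjusted p = 7.23e-04). Being inside the KCNQ1 gene, the row can also take unspliced KCNQ1 reads, whose part was not tested. The KCNQ1 row itself had 4 and 0 counts in shIRF2BP2 and 20 and 20 counts in shScb.

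CDKN1C, an inhibitor of cyclin-dependent kinases, fell beside KCNQ1OT1, with 6.22 and 5.87 CPM in shIRF2BP2 and 9.82 and 10.8 CPM in shScb (log2 fold change -0.77, standard error 0.15, edgeR adjusted p = 0.00151). KCNQ1, a potassium channel gene, was called lower (log2 fold change -3.22, standard error 0.85, edgeR adjusted p = 0.0102), and the call was lost without shIRF2BP2 replicate 2 (0.0679) or shScb replicate 2 (0.0619). With a library left out its log2 fold change lay between -7.32 and -2.25, the lowest without shIRF2BP2 replicate 1, which leaves the group with 0 counts. The ratio of KCNQ1OT1 to CDKN1C overlapped between groups, with a difference of 0.06 on the log2 scale.

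MEG3 is the maternally expressed RNA of the imprinted 14q32 region, known as a growth suppressor, and it had the highest mean level of all long noncoding RNA genes tested. It maps to the plus strand of chromosome 14 at 100779410 to 100861031 (ENSG00000214548). It had 431 and 436 CPM in shIRF2BP2, against 722 and 737 CPM in shScb, with replicates close together in each group. It was 1.68-fold lower (log2 fold change -0.75, standard error 0.04, edgeR adjusted p = 3.38e-08).

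Of the 4 genes listed with it at this locus, RTL1 fell and 3 were not called. MIR493HG, a noncoding gene that overlaps MEG3 on the same strand and is named after its values were seen, also fell, with 87 and 52 counts in shIRF2BP2 and 142 and 125 counts in shScb (log2 fold change -0.91, edgeR adjusted p = 0.0188). DLK1, a paternally expressed Notch-like ligand of sympathetic precursors, had 85.3 and 97.0 CPM in shIRF2BP2 and 106 and 130 CPM in shScb, and did not pass the test (log2 fold change -0.37, standard error 0.14, edgeR adjusted p = 0.152, but 6.44e-04 without shScb replicate 1). RTL1, a paternally expressed gene derived from a retrotransposon, fell, with 16 and 29 counts in shIRF2BP2 and 72 and 59 counts in shScb (log2 fold change -1.50, standard error 0.36, edgeR adjusted p = 0.00617). MEG8 (log2 fold change -0.38, edgeR adjusted p = 0.184) and MEG9 (-0.18, edgeR adjusted p = 0.517), noncoding RNAs of the same maternal cluster, were not called. The log2 ratio of MEG3 to DLK1 was 2.34 and 2.17 in shIRF2BP2 and 2.77 and 2.51 in shScb, a difference of -0.39 (exact permutation p = 0.333, the smallest possible).

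Imprinted genes and close neighbours of 11p15 and 14q32 were listed as a group of 21, which holds H19, KCNQ1OT1 and MEG3. Tests were possible for 19, of which 9 fell and 3 rose, leaving 7 without a call. Their median log2 fold change was -0.38, beside -0.01 over all genes. Calls over all genes tested were 21.4% lower and 20.6% higher. TSSC4, a gene in 11p15 that takes part in splicing complex assembly, rose, with 63.9 and 62.1 CPM in shIRF2BP2 and 44.0 and 44.2 CPM in shScb (log2 fold change 0.51, edgeR adjusted p = 3.44e-05). DIO3, the thyroid hormone deiodinase at the end of the 14q32 region, had 2.09 and 0.87 CPM in shIRF2BP2 and 0.12 and 0.20 CPM in shScb (log2 fold change 3.24, edgeR adjusted p = 9.42e-04). These levels rest on 67 and 28 counts in shIRF2BP2 and 4 and 6 counts in shScb, and the log2 fold change was 2.48 without shIRF2BP2 replicate 1 (edgeR adjusted p = 0.0263) and 3.74 without shIRF2BP2 replicate 2. DIO3OS, the antisense RNA beside DIO3, was the third of these genes to rise, with 17 and 19 counts in shIRF2BP2 and 0 and 4 counts in shScb (edgeR adjusted p = 0.0145), and it is named after its values were seen. The counts do not separate alleles.

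**Figure D4:**
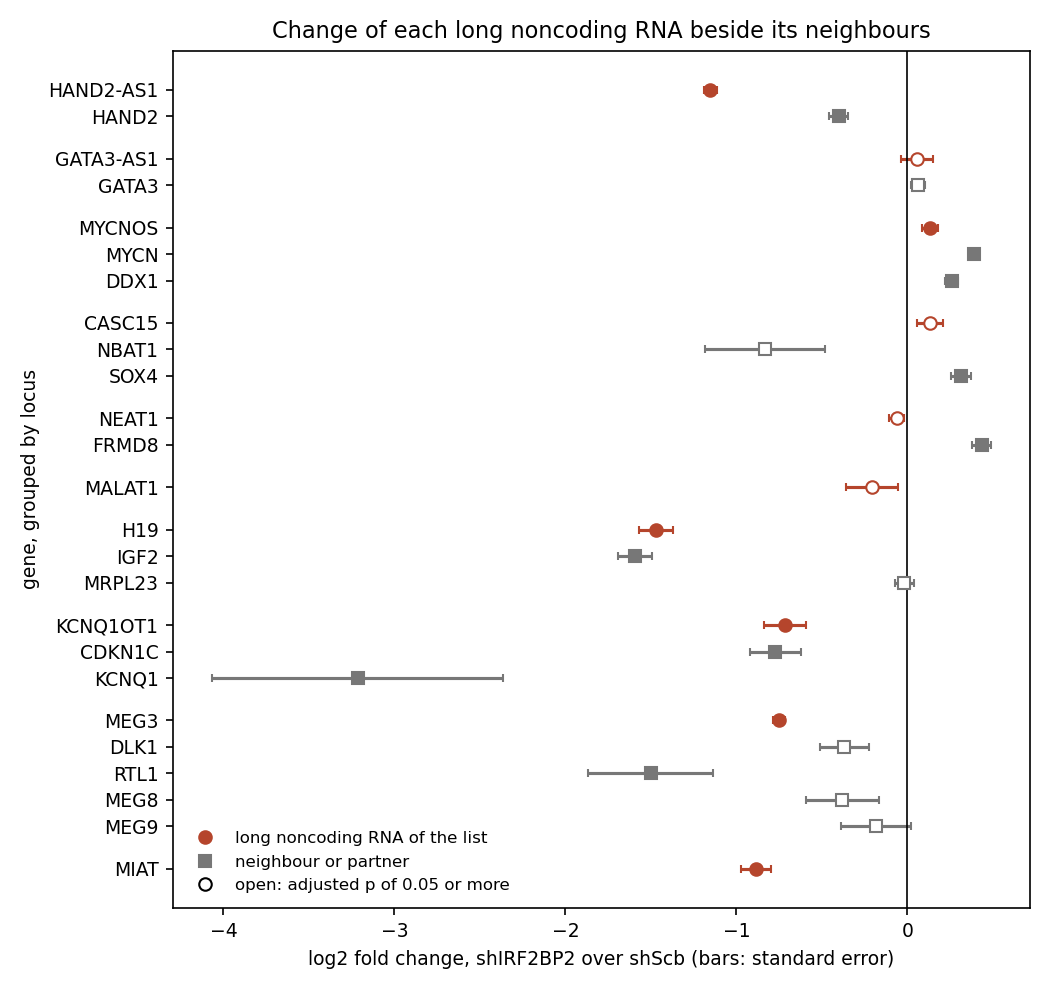
Log2 fold change, shIRF2BP2 over shScb, with its standard error for each long noncoding RNA (circles) and the partners or neighbours at its locus (squares), with filled symbols for an edgeR adjusted p under 0.05. H19 and IGF2 lie close together, as do KCNQ1OT1 and CDKN1C, while HAND2-AS1 lies well to the left of HAND2.

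MIAT, a nuclear RNA of neural tissue also called Gomafu, binds the splicing factors SF1, QKI and CELF3. It maps to the plus strand of chromosome 22 at 26646428 to 26676475 (ENSG00000225783). It had 22.4 and 19.4 CPM in shIRF2BP2, against 39.9 and 37.5 CPM in shScb, and the groups stood well apart. It was 1.85-fold lower (log2 fold change -0.89, standard error 0.09, edgeR adjusted p = 1.12e-05). An opposite-strand noncoding gene covers 18.2% of the MIAT exon bases but had a mean count of 4.2.

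Of the 3 splicing factors that bind MIAT, 1 rose and 2 were not called. For comparison, 20.6% of all genes tested were called higher and 21.4% lower. QKI, which controls splicing and RNA stability, rose, with 168 and 164 CPM in shIRF2BP2 and 114 and 112 CPM in shScb (log2 fold change 0.55, edgeR adjusted p = 5.39e-07). SF1, a factor that reads the branch point, stood at 0.02 on that scale (edgeR adjusted p = 0.767). CELF3, a neural splicing factor, stood at -0.21 (edgeR adjusted p = 0.0763), which passed the test with upper quartile scaling (0.0333), with a mean of at least 10 CPM (0.0258) and without shScb replicate 1 (0.0484).

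MALAT1 and NEAT1 lie 52148 bases apart on chromosome 11, MALAT1 from 65497688 to 65506516 (ENSG00000251562) and NEAT1 from 65422774 to 65445540 (ENSG00000245532), both on the plus strand. MALAT1 had 188 and 187 CPM in shIRF2BP2, against 244 and 190 CPM in shScb. Both shIRF2BP2 libraries lay just under shScb replicate 2, shScb replicate 1 stood apart, and the difference did not pass the test (log2 fold change -0.21, standard error 0.15, edgeR adjusted p = 0.396). Without shScb replicate 1 the log2 fold change was -0.0084 (edgeR adjusted p = 0.906), and without shScb replicate 2 it was -0.37 (edgeR adjusted p = 7.50e-06), so 1 library set this value.

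NEAT1 had 165 and 163 CPM in shIRF2BP2, against 178 and 164 CPM in shScb, and the groups overlapped (log2 fold change -0.06, standard error 0.04, edgeR adjusted p = 0.299). With only genes of at least 10 CPM in the fit it was called lower (log2 fold change -0.10, edgeR adjusted p = 0.0482). The short and the long form of NEAT1 share 1 row here, so a shift between them would not be seen. Both MALAT1 and the long NEAT1 form lack an ordinary poly(A) tail, and the labels do not say whether polyadenylated RNA was selected.

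A coding neighbour of this pair rose. FRMD8, which lies 9249 bases before NEAT1 and encodes a partner of the rhomboid-like iRhom proteins, had 70.5 and 70.3 CPM in shIRF2BP2 and 51.7 and 52.6 CPM in shScb (log2 fold change 0.43, edgeR adjusted p = 6.30e-05).

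Across all these loci 18 partner and neighbour genes could be tested, and 5 rose, 6 fell and 7 had no call. Their median log2 fold change was -0.32. Over all genes tested 20.6% were called higher and 21.4% lower.

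Genes of paraspeckle proteins moved both ways, with 11 of 35 tested higher, 9 lower and 15 not called. Their median on the log2 scale was 0.07. Calls over all genes tested were 20.6% higher and 21.4% lower, 42% in all. FAM98A (0.76) and TIAL1 (0.32), both RNA-binding proteins, rose on the log2 scale, while ZC3H6 (-1.35), RBMX (-0.30) and the neural splicing factor gene CELF6 (-2.89) fell (edgeR adjusted p at or under 9.94e-05). The CELF6 value rests on 10 and 8 counts in shIRF2BP2 and 80 and 59 counts in shScb. Of 15 genes of speckle proteins or factors that act on MALAT1, 7 rose and 8 had no call, with a median of 0.09 on the log2 scale. UHMK1 (0.29), METTL16 (0.38), whose product binds the MALAT1 end, PNN (0.25) and SRRM1 (0.21) rose on the log2 scale (edgeR adjusted p at or under 0.00102), and SRSF5, an SR splicing factor, stood at -0.09 (edgeR adjusted p = 0.116), which passed the test in 3 alternatives, for example 0.0238 with upper quartile scaling.

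Other long noncoding RNAs with a known role or abundance were listed for comparison. Tests were possible for 48, of which 7 rose and 14 fell, leaving 27 without a call. The median log2 fold change of these 48 was -0.03. Among all genes tested, 20.6% were called higher and 21.4% lower, and among all long noncoding RNA genes tested 4.96% and 13.4%. For the 204 long noncoding RNA genes with a mean of at least 10 CPM these shares were 10.8% and 38.2%. NORAD, a cytoplasmic RNA that binds Pumilio proteins, fell, with 209 and 194 CPM in shIRF2BP2 and 340 and 344 CPM in shScb (log2 fold change -0.76, edgeR adjusted p = 1.57e-07). OIP5-AS1 (-0.52) and GABPB1-AS1 (-0.55) also fell on the log2 scale (edgeR adjusted p at or under 5.17e-06). SNHG3, a host of small nucleolar RNAs, rose (log2 fold change 0.47, edgeR adjusted p = 2.21e-05), while DLGAP1-AS2 (1.62, edgeR adjusted p = 0.0686) was not called. DLGAP1-AS2 had only 34 and 40 counts in shIRF2BP2 and 22 and 3 counts in shScb. Its log2 fold change was 3.52 without shScb replicate 1 and 0.87 without shScb replicate 2.

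Genes whose products are known to act on 1 or more of the 10 were also read, with the shRNA target IRF2BP2 listed beside them. Tests were possible for 13 genes with IRF2BP2 counted, of which 9 rose and 4 fell. The fall of IRF2BP2 is the knockdown itself. The median log2 fold change of the 13 was 0.21. Calls over all genes tested were 20.6% higher and 21.4% lower. HIF1A, the oxygen-sensitive factor known to raise NEAT1, rose, with 476 and 467 CPM in shIRF2BP2 and 275 and 271 CPM in shScb (log2 fold change 0.79, edgeR adjusted p = 3.52e-08). EPAS1, which encodes the related factor HIF-2alpha, also known to raise NEAT1, fell, with 1.94 and 1.90 CPM in shIRF2BP2 and 4.72 and 5.53 CPM in shScb (log2 fold change -1.41, edgeR adjusted p = 3.58e-04), and it is named after its values were seen. YAP1, a coactivator of the Hippo pathway, had 3.53 and 4.93 CPM in shIRF2BP2 and 0.748 and 0.879 CPM in shScb (log2 fold change 2.38, edgeR adjusted p = 5.32e-05).

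Per length, the order of the 10 differed from that of the counts. In shIRF2BP2 libraries H19 had 88.4, MYCNOS 83.5, MALAT1 21.3 and MEG3 18.7 CPM per kilobase of exon, followed by HAND2-AS1 at 12.5, GATA3-AS1 at 10.7 and NEAT1 at 7.20. In shScb libraries H19 had 245, MYCNOS 76.1, MEG3 31.4, HAND2-AS1 27.7 and MALAT1 24.6 CPM per kilobase, followed by GATA3-AS1 at 10.3 and NEAT1 at 7.51. CASC15 (2.60 in shIRF2BP2, 2.37 in shScb), MIAT (1.77 in shIRF2BP2, 3.27 in shScb) and KCNQ1OT1 closed the order in both groups, with CASC15 above MIAT in shIRF2BP2 and MIAT above CASC15 in shScb. The lengths are the union of all annotated exons, which can exceed the transcripts these cells make.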

How the data were processed

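RNA sequencing libraries of 4 samples in 2 groups were used. The authors deposited raw counts per gene, 1 column per library. Reads were aligned with HISAT2 2.2.0 to hg38, per the submitters' processing notes, and the sources used here do not name the counter or annotation. The TruSeq RNA kit, named in the labels' protocols, does not mark strand. Control columns are headed NC and were taken as the scramble libraries because the other columns are named for IRF2BP2.

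Symbols were matched for 40995 of 64252 Ensembl identifiers, and GENCODE release 29 (GRCh38), which held 56591, gave gene types and exons. The edgeR 4.0.16 package under R 4.3.3 was used (filterByExpr, TMM, robust quasi-likelihood F-test, two-sided), with p-values adjusted over all 19093 genes by the Benjamini-Hochberg method at 0.05. Log2 fold changes are shIRF2BP2 over shScb, with standard errors taken as their size divided by the square root of F. The biological coefficient of variation was 9.52%. Within groups the chi-square of counts per degree of freedom was 5.26 (shIRF2BP2) and 7.01 (shScb), so no library was a copy. The procedure was tested on simulated data. Members and lists were chosen with earlier results of these data known. The rule named all 10 members, all genes listed at their loci, and of each other list up to 4 called genes with the smallest p and the largest rise and fall; some genes it names are not reported here. Alternatives used DESeq2 1.42.0, limma voom 3.58.1, other scalings and filters, and each library left out.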

Additional observations from a re-analysis of the deposited data

How the results depend on the processing

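HAND2-AS1, MIAT, MEG3, H19 and KCNQ1OT1 stayed called lower in all 12 alternatives, with log2 fold changes between -1.20 and -1.14, -0.99 and -0.79, -0.80 and -0.73, -1.58 and -1.34, and -0.82 and -0.59. The count of members called higher was 0 with upper quartile scaling and when genes under 10 CPM were left out (edgeR, 0 at an unadjusted p under 0.05 too, 1 by DESeq2 and limma voom) and lay between 0 and 1 when a library was left out, since MYCNOS was called in 7 of 12 alternatives (log2 fold change 0.09 to 0.19). Among long noncoding RNA genes, 136 were higher and 367 lower. With a mean of at least 10 CPM, which left 205 to test, 21 were higher and 89 lower, with DESeq2 79 and 213 (the cause was not tested), and with a library left out 77 (without shIRF2BP2 replicate 2) to 138 were higher and 259 to 282 lower. Log2 fold changes changed sign when a library was left out for GATA3-AS1 (-0.0483 to 0.18), NEAT1 (-0.12 to 0.0044), IGF2-AS (-1.18 to 0.30) and MEG9 (-0.51 to 0.0906), none of which was called in the reported fit. Of 491 values of 42 other genes, 471 kept side and direction, 12 passed the threshold newly, 5 lost it and 3 changed sign.

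The labels give same-numbered libraries only a number in common, and with 2 pairs the check does not settle pairing (correlation of their deviations 0.08 over all genes and 0.25 over genes averaging 10 CPM or more). With the replicate block 5 members were lower and 1 higher, 122 long noncoding RNA genes were higher and 317 lower, and DLK1 (edgeR adjusted p = 1.10e-04) and NBAT1 (0.0495) passed the threshold.

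Low counts limit precision, as for KCNQ1 (20 or fewer a library) and for RTL1 in shIRF2BP2 (16 and 29), and shared bases of opposite genes cannot be resolved. The 2 libraries per group allow no smaller exact p than 0.333.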
